A study of Mus musculus with 127 samples.

Results

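The members described here are 43 mouse genes of the constitutive proteasome, out of 53465 genes in the count table: the subunits of the 20S core (Psma1 to Psma7 and Psmb1 to Psmb7), the ATPases (Psmc1 to Psmc6) and non-ATPase subunits (12 genes) of the 19S regulatory particle, 8 assembly chaperones, and 3 activators and inhibitors. The rule that chose them uses names and roles and no measured value, and their Ensembl identifiers were matched to mouse symbols. All 43 had a row in the table and all 43 passed the low-count filter, so each of them was tested.

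RNA was measured by Patch-seq, in which the content of a single cell is drawn into the recording pipette after an electrical recording and then sequenced. The table held 127 cells from wild-type C57BL/6 cultures of newborn (P0 to P1) mice, 113 striatal neurons and 14 astrocytes. The neurons grew singly on small islands of cortical astrocytes. Among the neurons, 104 received a lentivirus carrying exon 1 of human huntingtin fused to GFP, with a polyglutamine tract of 97 or 25 residues. The other 9 received an empty vector. Each cell was collected at day 15 in vitro. The groups were 26 97Q neurons treated with RGFP109, 26 97Q neurons given vehicle, 23 25Q neurons treated with RGFP109, 29 25Q neurons given vehicle, 14 astrocytes taken from cultures that were not treated, and 9 neurons with an empty vector and vehicle. RGFP109 inhibits histone deacetylases 1 and 3 and was given at 100 nM from day 6 in vitro and again every 3 days. Its vehicle was DMSO. The promoter that drove the transgene is not given in the sources used here, and the transgene itself was not in the table, so its level was not analysed here. Tract length was therefore taken from the labels alone. Expression of exon 1 from a virus is a model of the protein fragment and not of the disease allele.

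The labels name a batch for each cell but no animal or culture, so counts were summed over the cells of each group in each of the 3 batches, and these sums are the replicates (n = 3 per group). The 97Q vehicle sums held 8, 3 and 15 cells in batches 1, 2 and 3, the 25Q vehicle sums 10, 4 and 15, the 97Q RGFP109 sums 8, 4 and 14, and the 25Q RGFP109 sums 8, 4 and 11. Astrocytes and empty vector neurons were in batch 3 only. Batch is a term of the fit, so shifts that a batch gives to all groups are taken out. The p-values below measure only the spread that then remains between the 12 sums of the 4 transgene groups. That spread may be technical. Total counts ran between 999700 and 9263305 per cell (median 4440040), and between 8665881 and 76217208 per sum of the 4 transgene groups. The kits named in the labels add no molecular identifiers, so counts are of amplified reads. Levels are given as CPM, the count divided by the library total and scaled to the same total in every library. Batch 2, with the fewest cells, also had the fewest genes with a count: the median cell had 10296 genes in 97Q vehicle neurons and 8965 in 25Q vehicle neurons of that batch, against 12223.5 and 12836.5 in batch 1. All 12 pan-neuronal markers (among them Tubb3, Map2 and Snap25) had counts in every neuron group, with 6641, 8547 and 9286 CPM in sum in the 97Q vehicle sums and 5875, 5846 and 9897 CPM in the 25Q vehicle sums. The 15 astrocyte markers summed to 9104 CPM in astrocytes and to 99.6 to 568 CPM in the 12 transgene neuron sums. In the astrocyte sum 14 of the 15 had counts, and Gjb6 was at 0. Over the same 12 sums, microglial markers (8 genes) summed to 0.216 to 108.5 CPM, oligodendrocyte markers (8 genes) to 43.3 to 391.5 CPM and proliferation markers (10 genes) to 21.4 to 174 CPM.

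The 26S proteasome is the enzyme that degrades proteins marked with ubiquitin. Its 20S core is a barrel of stacked alpha and beta rings with the active sites inside, and the 19S particle binds ubiquitin chains, removes them, unfolds the substrate with its ring of ATPases and feeds it into the core. Dedicated chaperones build the rings before the parts are joined. In mammals, transcription factors of the Nfe2l family bind antioxidant response elements in promoters of proteasome genes and raise many subunits together when the enzyme is inhibited. Neurons depend on the enzyme for synaptic turnover, and mutant huntingtin fragments with long polyglutamine tracts form ubiquitin-positive inclusions.

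Because the members are known to share regulation, their promoters were read from RefSeq (GRCm38.p6), which had an entry for 36 of the 43. The antioxidant response element core TGACNNNGC was searched on both strands in the 250 bases before the start. It was found in 6 of the 36 promoters (16.7%), and in 11.5% of the promoters of 27025 genes. The stretches around it are shown for 5 of these genes, which cover the core (Psmb5, Psmb6), the regulatory particle (Psmc6, Psmd12) and its assembly (Psmd9), and which are referred to again beside their values. They lie at chr14:54618022-54618054 on the minus strand for Psmb5, chr11:70525336-70525356 on the plus strand for Psmb6, chr14:45329585-45329617 on the plus strand for Psmc6, chr11:107479278-107479301 on the plus strand for Psmd12 and chr5:123228147-123228179 on the plus strand for Psmd9. Each is written along the gene's own strand, with the match in capitals. In Psmc6 and Psmd12 the match is on the opposite strand and appears as its reverse complement.
Psmb5: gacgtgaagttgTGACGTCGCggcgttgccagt
Psmb6: gactaaagagagTGACGGAGC
Psmc6: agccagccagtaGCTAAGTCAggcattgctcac
Psmd12: tctGCTGTGTCAcatttgcccccc
Psmd9: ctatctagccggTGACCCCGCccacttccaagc

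The CCAAT box, searched as the letters CCAAT on both strands, was in 13 of the 36 promoters (36.1%) and in 37.5% of all promoters. The heat shock element core GAANNTTC was in 2 of the 36 (5.56%) and in 7.73% of all. Matches of these lengths are descriptions of the letters and not of binding.

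Levels differed widely between members. Per kilobase of exon, in the 25Q vehicle sums (CPM per kb, mean ± SD, n = 3), the alpha ring ran between 315 ± 58.5 for Psma6 and 46.9 ± 10.1 for Psma3, and the beta ring between 314 ± 17.3 for Psmb2 and 29.55 ± 3.94 for Psmb3, although a ring holds a single copy of each subunit. The ATPases lay between 253 ± 69.3 for Psmc5 and 77.7 ± 35.9 for Psmc2 on the same scale. Among the non-ATPase subunits, the deubiquitinase Psmd14 was highest (128 ± 23.35) and the ubiquitin receptor Adrm1 lowest (5.09 ± 1.17). Assembly chaperones ran between 51.3 ± 13.0 for Pomp, which guides beta ring formation, and 5.365 ± 4.44 for Psmg3. Their means lay below those of the ATPases but overlapped those of the alpha ring, the beta ring and the non-ATPase subunits. The inhibitor Psmf1 had 17.4 ± 10.4 and the nuclear activator Psme4 6.82 ± 2.81. Psma6, Psmb2, Psmc5, Psmb6, Psmc1, Psma1, Psma2, Psmd14, Psma4 and Psmb5 were the 10 highest, and 8 of the 10 stayed so with the length of the longest transcript in place of all exons. Of the 42 steps between neighbours in this order 39 were smaller than the SD of the higher member, so most neighbours do not differ beyond their spread. Where exons are shared with another gene, reads may belong to either. This holds for Psmd9 (25.5% of its exon length) and, for smaller shares, for Psma4, Psma5, Psmb5, Psmb7, Psmc3, Psmd1, Psmd3, Psmd13 and Psmg3. Psmb5, Psmg3 and Psmd1 have a partner on the same strand, which a strand setting cannot tell apart. For partners on the opposite strand, no source used here states whether the counting used strand. Reads from processed pseudogene copies of proteasome genes are uncertain in the same way.

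The comparison of 97Q with 25Q neurons under vehicle asks what the long tract does to these transcripts. Proteasome mRNA was higher in 97Q neurons for most members and in every role of the core and the regulatory particle, but no member passed the test. Together the 43 genes made up 10542, 13862 and 12999.8 CPM in 97Q vehicle sums (batches 1, 2 and 3), against 8057, 8318.5 and 10097 CPM in the 25Q vehicle sums. The 97Q values were all above the 25Q values, with a mean of 12468 ± 1723 CPM in 97Q vehicle sums and 8824 ± 1110.1 CPM in 25Q vehicle sums (SD, n = 3 each). In single cells the summed level ran over 6343 to 16811 CPM with a median of 12377 in the 26 97Q vehicle neurons and over 6169 to 13546 CPM with a median of 8937 in the 29 25Q vehicle neurons, so the cells of both groups overlapped. The median cell had counts for 43 of 43 members in both vehicle groups, and the per-cell medians differed in the same direction as the sums.

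**Figure D1:**
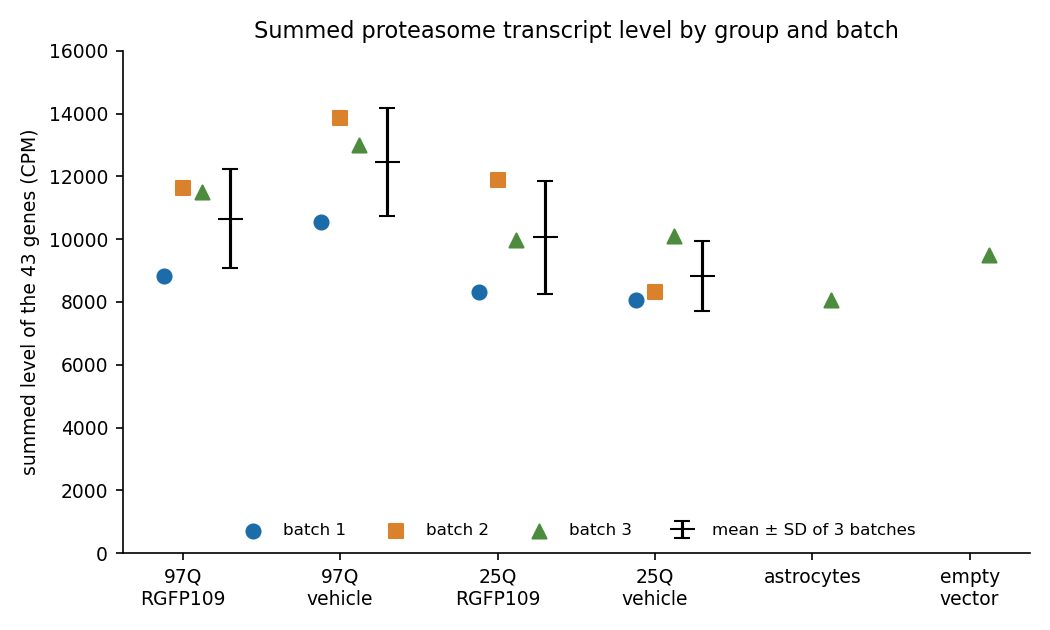
Summed level of the 43 members (CPM of the library, from 0) in each group. Markers are the sums of the cells of 1 batch and bars are the mean ± SD of 3 batches. The 97Q vehicle sums lie at 10542, 13862 and 12999.8 CPM and all exceed the 25Q vehicle sums at 8057, 8318.5 and 10097 CPM; astrocytes and empty vector neurons have a single sum each.

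In the edgeR fit, which scales libraries by the trimmed mean of M-values (TMM) and holds batch as a term, the log2 fold change was above 0 for 39 of the 43 members, against 52.4% of the 15091 genes tested. Its median over the members was 0.476 and over all genes 0.057. The median ratio in each batch, as log2 of CPM + 1 on library size, was 0.38 in batch 1, 0.911 in batch 2 and 0.30 in batch 3. In all 3 batches 27 members were higher in 97Q neurons, against 15.8% of all genes, and none was lower in all 3. By edgeR's quasi-likelihood test, 7 members had an unadjusted p under 0.05 with the higher level in 97Q, against 1.5% of all genes. None passed Benjamini-Hochberg adjustment over the 15091 genes (smallest adjusted p of a member 0.969), nor did any gene (0.0%), while 597 genes were under 0.05 unadjusted. DESeq2 on the same sums called 213 genes and limma-voom 0, none of them a member.

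**Figure D2:**
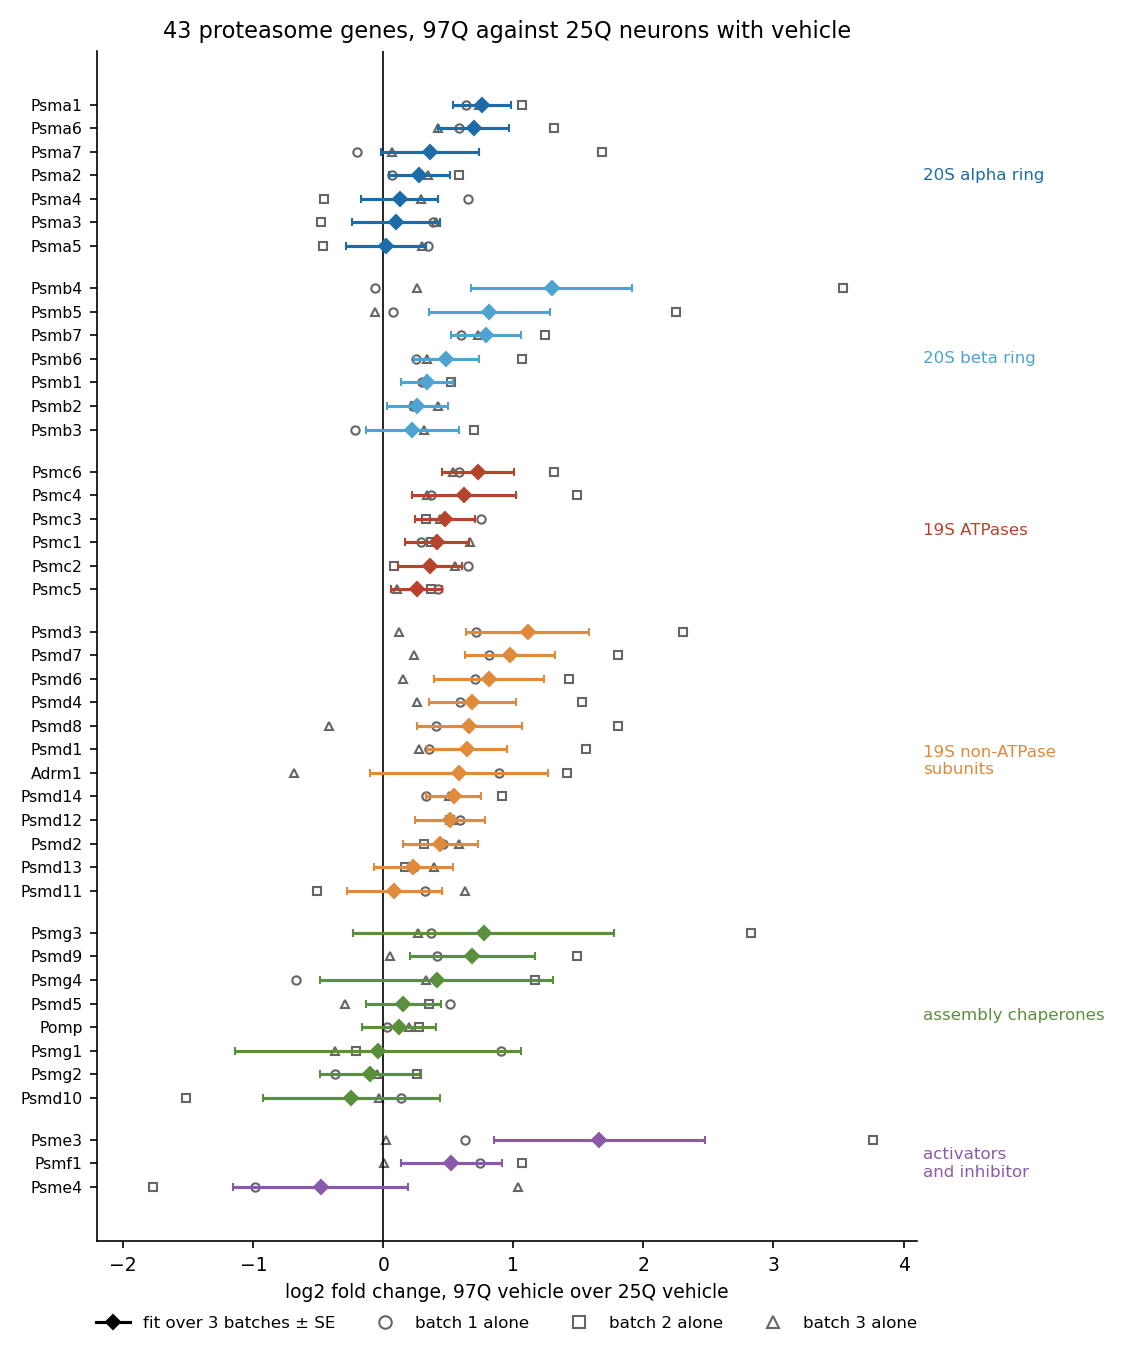
Log2 fold change of each member, 97Q vehicle over 25Q vehicle, by role. Filled diamonds are the edgeR estimate with its SE and open markers the log2 ratio of CPM + 1 in each batch. Of the 43 diamonds 39 lie above 0; Psme3 is highest at 1.66 and Psme4 lowest at -0.48, and the batch 2 markers spread farthest.

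All 7 alpha ring genes, which form the outer rings and the gate of the core, had a fold change above 0 (median 0.28). Psma1 had 588.5, 1129.5 and 737 CPM in 97Q vehicle sums (batches 1, 2 and 3), against 379, 537 and 441 CPM in 25Q vehicle sums. Every 97Q value of this gene (ENSMUSG00000030751, chr7:114264606-114276118, minus strand in GRCm38) was above every 25Q value (log2 fold change 0.76, SE 0.22, unadjusted p 0.00678). Psma6 (ENSMUSG00000021024, chr12:55384222-55418454, plus strand) had 535, 840.2 and 629 CPM in 97Q vehicle sums and 357, 337 and 471 CPM in 25Q vehicle sums, again with no overlap (log2 fold change 0.69, SE 0.28, unadjusted p 0.0322). Both genes were higher in each batch. Per cell, Psma1 ran over 5.23 to 2194 CPM with a median of 668 in 97Q vehicle neurons and over 37.6 to 1106 CPM with a median of 364 in 25Q vehicle neurons. The other 5 alpha genes had fold changes between 0.02 (Psma5) and 0.36 (Psma7).

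In the beta ring, which carries the proteolytic sites, all 7 genes were above 0 (median 0.48). Psmb7 had 195, 378 and 341 CPM in 97Q vehicle sums (batches 1, 2 and 3), against 128.5, 159 and 206 CPM in 25Q vehicle sums; this gene (ENSMUSG00000026750, chr2:38588036-38644087, minus strand) encodes the trypsin-like site. The groups overlapped across batches, since 97Q in batch 1 lay below 25Q in batch 3, but 97Q was higher within each batch (log2 fold change 0.79, SE 0.27, unadjusted p 0.01525). Psmb6 had 439.7, 457 and 471 CPM in 97Q vehicle sums (batches 1, 2 and 3), against 370.1, 217.5 and 373 CPM in 25Q vehicle sums. The 97Q values of this caspase-like subunit (ENSMUSG00000018286, chr11:70525367-70527858, plus strand) were all above the 25Q values (log2 fold change 0.48, SE 0.25, unadjusted p 0.08215). For Psmb5 (ENSMUSG00000022193, chr14:54614119-54618022, minus strand), the chymotrypsin-like subunit and the main target of clinical proteasome inhibitors, the sums held 100.4, 116.5 and 144 CPM in 97Q vehicle neurons and 95.3, 23.65 and 150.3 CPM in 25Q vehicle neurons. Its groups differed in batch 2 alone, where the 25Q sum of 4 cells was low, and lay within 0.1 of each other on the log2 scale in the other batches (log2 fold change 0.82, SE 0.47, unadjusted p 0.114; range under the alternatives 0.02 to 1.35). Psmb4, a structural beta subunit, had 199, 264 and 220.4 CPM in 97Q vehicle sums and 209, 21.8 and 185 CPM in 25Q vehicle sums. It too was low in the 25Q sum of batch 2 and overlapped otherwise (log2 fold change 1.29, SE 0.62, unadjusted p 0.0654), and its log2 fold change under the alternatives lay between 0.097 and 1.94. The other beta genes, Psmb1, Psmb2 and Psmb3, lay between 0.22 and 0.33.

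All 6 ATPases, which unfold the substrate, were higher in 97Q vehicle neurons in every batch (median log2 fold change 0.44, range 0.255 for Psmc5 to 0.73 for Psmc6). Psmc6 had 319.8, 724 and 493 CPM in 97Q vehicle sums (batches 1, 2 and 3), against 213.5, 292 and 339.7 CPM in 25Q vehicle sums. The batch 1 value of 97Q lay below the batch 3 value of 25Q, so the groups overlapped across batches (log2 fold change 0.73, SE 0.28, unadjusted p 0.0263). This gene (ENSMUSG00000021832, chr14:45329788-45349705, plus strand) is among the 6 whose promoter holds the antioxidant response element core.

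The 12 non-ATPase subunits, which receive ubiquitin chains and form the lid and scaffold, were all above 0 and had the highest median of the roles (0.61); 9 of the 12 were higher in all 3 batches. Psmd7 had 325, 267.5 and 235 CPM in 97Q vehicle sums (batches 1, 2 and 3), against 185, 75.9 and 199 CPM in 25Q vehicle sums. Psmd7 (ENSMUSG00000039067, chr8:107580381-107588464, minus strand) pairs with the deubiquitinase Psmd14 in the lid, and its 97Q values were all above its 25Q values (log2 fold change 0.97, SE 0.35, unadjusted p 0.02). Psmd14 itself (ENSMUSG00000026914, chr2:61711694-61800376, plus strand) had 359, 751 and 566 CPM in 97Q vehicle sums and 285, 399 and 399.7 CPM in 25Q vehicle sums. It was higher in 97Q within each batch, with overlap across batches (log2 fold change 0.54, SE 0.21, unadjusted p 0.0286). Psmd3, a lid subunit (ENSMUSG00000017221, chr11:98682554-98695979, plus strand), had 180.3, 227 and 29.4 CPM in 97Q vehicle sums and 109.9, 45.1 and 27.1 CPM in 25Q vehicle sums. Its batch 3 levels were far below its batch 1 levels in both groups, and in that batch the groups lay close together (log2 fold change 1.11, SE 0.47, unadjusted p 0.0426; range under the alternatives 0.45 to 1.41). The other 9 lay between 0.085 for Psmd11 and 0.81 for Psmd6.

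The assembly chaperones had smaller differences. Their sum was 770.3, 782.5 and 642 CPM in 97Q vehicle sums and 667, 659.9 and 625 CPM in 25Q vehicle sums, higher within each batch, and no test was made of a difference between roles. Of the 8 genes 5 were above 0, a share near the 52.4% of all genes, and 3 were higher in all 3 batches (median 0.14, range -0.25 for Psmd10 to 0.77 for Psmg3). The median by batch was 0.252, 0.314 and 0.01. Pomp had 241, 419 and 255 CPM in 97Q vehicle sums (batches 1, 2 and 3), against 236, 345 and 221 CPM in 25Q vehicle sums. The groups overlapped, and the log2 fold change was 0.12 (SE 0.285; ENSMUSG00000029649, chr5:147860461-147876456, plus strand), with the opposite sign when batch 3 was left out. Psmg1 and Psmg2, which form a heterodimer that starts the alpha ring, had -0.038 and -0.10. The highest and lowest members were both activators. Psme3 (ENSMUSG00000078652, chr11:101316213-101323537, plus strand), a nuclear cap of the core that acts without ubiquitin, had 103, 112.5 and 21.0 CPM in 97Q vehicle sums and 66.2, 7.34 and 20.65 CPM in 25Q vehicle sums (log2 fold change 1.66, SE 0.81, unadjusted p 0.0696). Most of its difference came from batch 2, and in batch 3 the values were nearly the same, so that the fold change lay between 0.345 and 2.30 under the alternatives. Psme4 (ENSMUSG00000040850, chr11:30771726-30880361, plus strand), another nuclear cap, had 29.6, 22.6 and 67.65 CPM in 97Q vehicle sums and 59.6, 79.4 and 32.5 CPM in 25Q vehicle sums, lower in 97Q in batches 1 and 2 and higher in batch 3 (log2 fold change -0.48, SE 0.67, unadjusted p 0.492), and limma-voom gave it the opposite sign. The inhibitor Psmf1 had a log2 fold change of 0.52.

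Batch 2, with 3 and 4 cells in these groups, gave the largest differences. Without it the median over the members was 0.338 with 39 above 0, without batch 1 it was 0.407 with 34 above 0, and without batch 3 it was 0.408 with 34 above 0. With the number of genes detected as a covariate the median was 0.455. The marker lists gave the following values beside this result. Endothelial and mural markers (10 genes, 3 of which passed the low-count filter) summed to 1627, 213 and 148 CPM in 97Q vehicle sums and 133, 152 and 51.4 CPM in 25Q vehicle sums, and Rgs5 was at 0 in the 97Q cells. In batch 1 the 97Q value was nearly all Acta2 (1621.5 CPM) and came from 1 cell, cell 7, which held 97.0% of the marker counts. Without that cell the sum was 64.8 CPM, below the 133 CPM of the 25Q vehicle sum. The members summed to 11428 CPM in that cell, within the range of the others. The 8 GABAergic markers, which include Gad1 and Slc32a1, summed to 1061, 963 and 1866.5 CPM in 97Q vehicle sums and 2422, 3009.7 and 5295.5 CPM in 25Q vehicle sums, with no overlap. Astrocyte markers summed to 382, 289.5 and 180.4 CPM in 97Q vehicle sums and 548, 99.6 and 238 CPM in 25Q vehicle sums, higher in 97Q in batch 2 alone. Pan-neuronal markers, given above, were higher in 97Q in batches 1 and 2 and lower in batch 3, with 7 of 12 above 0 in the fit (median 0.254). Proliferation markers (10 genes, 6 of which passed the low-count filter) summed to 174, 109.7 and 93.7 CPM in 97Q vehicle sums and 86.9, 21.4 and 101 CPM in 25Q vehicle sums, with 6 of the 6 above 0 in the fit and 4 of them higher in all 3 batches. With the astrocyte markers as a covariate the median over the members was 0.449. The part of the other lists in the result was not tested.

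The 6 genes with the antioxidant response element core in their promoter were all above 0, with a median log2 fold change of 0.634. Of the other 30 with a promoter entry 27 were above 0, with a median of 0.385. Only Psmb6, Psmc6, Psmd12 and Psmd9 of the 6 were higher in 97Q vehicle neurons in every batch, and no test was made of the difference between the 2 sets. For the CCAAT box 12 of 13 genes were above 0 (median 0.411), and 21 of the 23 without it (median 0.483). For the heat shock element core these were 2 of 2 (median 0.669) and 31 of 34 (median 0.425), also without a test. Over all genes 52.4% were above 0.

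Across single neurons, core and regulatory particle levels went together. The summed 20S genes and the summed 19S genes had a Spearman rho of 0.71 over the 113 neurons, and between 0.472 (25Q vehicle) and 0.85 (empty vector, 9 cells) within groups. Both sums come from the same library and share its depth and scaling, so this is a description. Single pairs of members were only loosely related, with a median pairwise rho of 0.174 over all neurons. The sum of all members had a rho of 0.491 with the pan-neuronal markers, -0.194 with the number of genes detected and -0.074 with the astrocyte markers. Within groups of neurons the rho with the pan-neuronal markers ran between 0.117 (empty vector) and 0.728 (25Q RGFP109). The median cell had 5231 CPM of 20S genes and 5731 CPM of 19S genes in 97Q vehicle neurons, against 3885 and 4130 CPM in 25Q vehicle neurons. Under RGFP109 the medians were 4053 CPM for 20S genes and 5500 CPM for 19S genes in 97Q neurons, and 3959 and 4499 CPM in 25Q neurons.

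**Figure D3:**
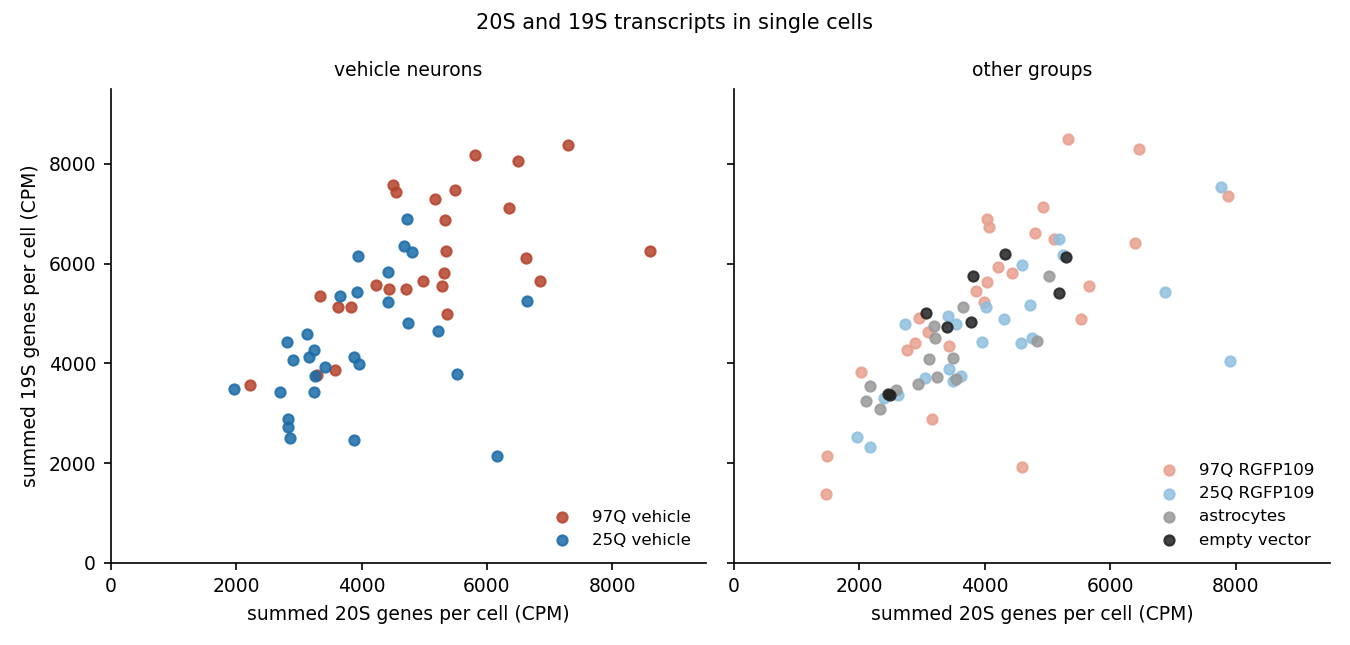
Summed 20S genes (horizontal) against summed 19S genes (vertical) in CPM, 1 point per cell, with 97Q and 25Q vehicle neurons on the left and the other groups on the right. Cells high in one sum tend to be high in the other (rho 0.71 over 113 neurons), and the 97Q vehicle cells reach higher than the 25Q vehicle cells on both axes.

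The drug comparison within 97Q neurons asks whether RGFP109 shifts these transcripts in cells with the long tract. Below 0 in the fit were 6 of 7 genes of the core's proteolytic ring, 5 of 6 ATPases and 5 of 8 assembly chaperones. Over all genes the share was 52%. The non-ATPase subunits and the alpha ring were split, and no difference between roles was tested. The 43 genes summed to 8830.0, 11631 and 11509 CPM in 97Q RGFP109 sums (batches 1, 2 and 3), against 10542, 13862 and 12999.8 CPM in the 97Q vehicle sums. The RGFP109 value was the lower of the pair in each batch, while the groups overlapped across batches. In the fit 26 of the 43 members were below 0, against 52% of all genes, with a median of -0.09 over members and -0.041 over all genes. On library size alone 10 were above 0 and the median was -0.197, beside -0.128 over all genes. Without batch 1 the median was -0.011, without batch 2 -0.232 and without batch 3 -0.022. The median by batch on library size was -0.291, -0.273 and -0.171 over members, beside -0.022, -0.228 and 0.024 over all genes. In all 3 batches 14 members were lower, against 14.1% of all genes. The share below 0 in the fit is near that of all genes and is not a result about the members.

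By edgeR's quasi-likelihood test a single member was under 0.05 unadjusted in the direction of a lower level (1.09% of all genes), and none passed Benjamini-Hochberg adjustment (0.0% of all genes, smallest adjusted p of a member 0.999). Unadjusted, 375 genes were under 0.05. DESeq2 called 110 genes and limma-voom 0, with no member among them. The single member was Psmg2, the alpha ring chaperone. Psmg2 had 31.4, 13.5 and 62.99 CPM in 97Q RGFP109 sums (batches 1, 2 and 3), against 63.1, 58.2 and 96.5 CPM in 97Q vehicle sums. It was lower with RGFP109 in each batch, with overlap across batches (log2 fold change -1.10, SE 0.39, unadjusted p 0.0196). Its adjusted p was 0.999 by edgeR with Benjamini-Hochberg adjustment and 0.0763 by DESeq2, the lowest under any alternative.

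Of the 7 beta ring genes 6 were below 0 (median -0.29), against 52% of all genes. In all 3 batches 5 were lower, against 14.1% of all genes. Psmb5 had 74.6, 25.4 and 137 CPM in 97Q RGFP109 sums (batches 1, 2 and 3), against 100.4, 116.5 and 144 CPM in 97Q vehicle sums. The batch 2 sum was low with the drug, and batch 3 was nearly equal (log2 fold change -0.92, SE 0.46, unadjusted p 0.0774). Psmb6 had 279, 320.5 and 439.5 CPM in 97Q RGFP109 sums (batches 1, 2 and 3), against 439.7, 457 and 471 CPM in 97Q vehicle sums, lower in each batch (log2 fold change -0.29, SE 0.25, unadjusted p 0.268). Psmb1, a structural subunit, had 374, 402 and 494 CPM in 97Q RGFP109 sums and 515, 618.5 and 591 CPM in 97Q vehicle sums. Its RGFP109 values were all below its vehicle values (log2 fold change -0.33, SE 0.20, unadjusted p 0.131). Psmb4 had a fold change of -0.94 (SE 0.60), carried by batch 2. Psmb7 had a fold change near 0, with 203, 409.8 and 283 CPM in 97Q RGFP109 sums and 195, 378 and 341 CPM in 97Q vehicle sums (log2 fold change 0.096, SE 0.27, unadjusted p 0.727), and its sign turned under several alternatives, library size alone among them.

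Among the ATPases 5 of 6 were below 0 (median -0.17). Psmc2 had 269, 325.5 and 369 CPM in 97Q RGFP109 sums (batches 1, 2 and 3), against 345, 614 and 548 CPM in 97Q vehicle sums, lower in each batch with overlap across batches (log2 fold change -0.50, SE 0.25, unadjusted p 0.0724). Psmc5 had 241, 318 and 399.9 CPM in 97Q RGFP109 sums and 327, 497 and 461 CPM in 97Q vehicle sums, also lower in each batch (log2 fold change -0.32, SE 0.20, unadjusted p 0.141). The non-ATPase subunits had 7 genes above 0 and 5 below (median 0.046). Psmd7 was at -0.53 (SE 0.34) and Psmd14 at -0.21 (SE 0.21), both with mixed signs across batches. The alpha ring had 4 genes above 0 and 3 below. Of the 8 assembly chaperones 5 were below 0, with a median of -0.44, the lowest of the roles. Psmd9, a chaperone of the ATPase ring, had 76.1, 12.4 and 84.9 CPM in 97Q RGFP109 sums and 84.6, 82.3 and 97.25 CPM in 97Q vehicle sums (log2 fold change -0.87, SE 0.49, unadjusted p 0.11), most of it from batch 2. Pomp was at -0.022 (SE 0.29). The highest member was the activator Psme4, at 60.2, 98.5 and 41.2 CPM in 97Q RGFP109 sums and 29.6, 22.6 and 67.65 CPM in 97Q vehicle sums, higher with the drug in batches 1 and 2 and lower in batch 3 (log2 fold change 0.76, SE 0.68, unadjusted p 0.290). Pan-neuronal markers summed to 5067, 4619 and 9543 CPM in 97Q RGFP109 sums and 6641, 8547 and 9286 CPM in 97Q vehicle sums. Their Spearman rho with the sum of the members was 0.613 in 97Q RGFP109 cells and 0.274 in 97Q vehicle cells, and their part in these values was not tested. Astrocyte markers summed to 486, 515 and 323 CPM in 97Q RGFP109 sums and 382, 289.5 and 180.4 CPM in 97Q vehicle sums, and with them as a covariate the median over the members was -0.221.

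In 25Q neurons RGFP109 went with a higher level of rather more members than not. The 43 genes summed to 8307, 11892 and 9962 CPM in 25Q RGFP109 sums (batches 1, 2 and 3), against 8057, 8318.5 and 10097 CPM in the 25Q vehicle sums, higher with the drug in batches 1 and 2 and slightly lower in batch 3. In the fit 28 of the 43 were above 0, against 50.1% of all genes (median 0.187 over members and 0.002 over all genes). Medians by batch on library size were 0.093, 0.454 and -0.124 over members and -0.035, 0.076 and -0.094 over all genes. Without batch 2 the median of the fit was 0.083. Pan-neuronal markers summed to 7283, 9267 and 10516 CPM in 25Q RGFP109 sums and 5875, 5846 and 9897 CPM in 25Q vehicle sums, higher with the drug in each batch, and 8 of the 12 were above 0 in the fit. Across the 23 25Q RGFP109 cells the sum of the members had a Spearman rho of 0.728 with these markers, the highest of the groups, and it was 0.671 in 25Q vehicle cells. These are descriptions within the same libraries. Their part in the values of the members was not tested. In all 3 batches 7 members were higher, against 12.3% of all genes. By edgeR's quasi-likelihood test 1 member was under 0.05 unadjusted and higher (1.12% of all genes), and none passed Benjamini-Hochberg adjustment (0.0%, smallest adjusted p 1.0). Unadjusted, 381 genes were under 0.05. DESeq2 called 143 genes and limma-voom 0, with no member among them.

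That member was the trypsin-like subunit Psmb7. Psmb7 had 169.9, 461 and 288 CPM in 25Q RGFP109 sums (batches 1, 2 and 3), against 128.5, 159 and 206 CPM in 25Q vehicle sums. It was higher with RGFP109 in each batch, with overlap across batches (log2 fold change 0.79, SE 0.27, unadjusted p 0.0155). Psma6 had 445, 804.5 and 549 CPM in 25Q RGFP109 sums (batches 1, 2 and 3), against 357, 337 and 471 CPM in 25Q vehicle sums, also higher in each batch (log2 fold change 0.57, SE 0.28, unadjusted p 0.06875). Psma1 and Psma2 were at 0.3 and 0.35, mostly from batch 2. The other catalytic subunits were at 0.27 (SE 0.25) for Psmb6 and -0.009 (SE 0.45) for Psmb5. Of the 12 non-ATPase subunits 10 were above 0 (median 0.24), among them Psmd7 at 0.40, higher in all 3 batches, and the ubiquitin receptor Psmd4 at 0.43, while Psmd14 was at -0.042. Psmc1 of the ATPases was at 0.26. The chaperones had 5 of 8 below 0, with Psmg1 the lowest member at -0.57 (SE 1.11) and Pomp at -0.015.

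Whether the drug's effect differed between the tracts was tested as an interaction in the same fit. It was below 0 for 35 of the 43 members, against 51.6% of all genes, with a median of -0.247 over members and -0.044 over all genes; a value below 0 means a lower ratio of RGFP109 to vehicle in 97Q than in 25Q. The medians by batch on library size were -0.25, -0.981 and -0.104 over members and 0.031, -0.489 and 0.136 over all genes. In all 3 batches 16 members were below 0, against 13.8% of all genes. The number above 0 was 8, and it was 15 without batch 1 and 14 without batch 3. The 97Q vehicle and 25Q vehicle sums enter this contrast and the comparison of the tracts alike, so the 2 sets of values are not independent. By edgeR's quasi-likelihood test 1 member was under 0.05 unadjusted and below 0 (1.02% of all genes), and none passed Benjamini-Hochberg adjustment (0.0%, smallest adjusted p 0.998); 393 genes were under 0.05 unadjusted, DESeq2 called 70 genes and limma-voom 0, none a member. The member was Psma6 (log2 fold change -0.90, SE 0.39, unadjusted p 0.0441), at -1.13, -1.54 and -0.57 in batches 1, 2 and 3. The lowest value was that of Psmb4 (-1.46, SE 0.84), which rested on batch 2. Psmd9 was at -1.27, Psmd7 at -0.93, Psmb7 at -0.70, Psma1 at -0.56 and Psmg2 at -0.855, each below 0 in every batch. Psmb6 was at -0.56, also in every batch, and Psmb5 at -0.91 with batch 3 above 0. Psmd14 at -0.17 and Pomp at -0.006 were near 0 relative to their SE of 0.30 and 0.40. Psme4 was highest at 0.58. By role, all 12 non-ATPase subunits were below 0 in the fit, but with a median of -0.13, a batch 3 median of 0.032 and 2 of the 12 below 0 in all 3 batches, a share near that of all genes. Of the 7 beta ring genes 6 were below 0 in the fit (median -0.56) and 4 in all 3 batches. Pan-neuronal markers were below 0 in this contrast for 9 of 12 (median -0.408), and their part was not tested.

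**Figure D4:**
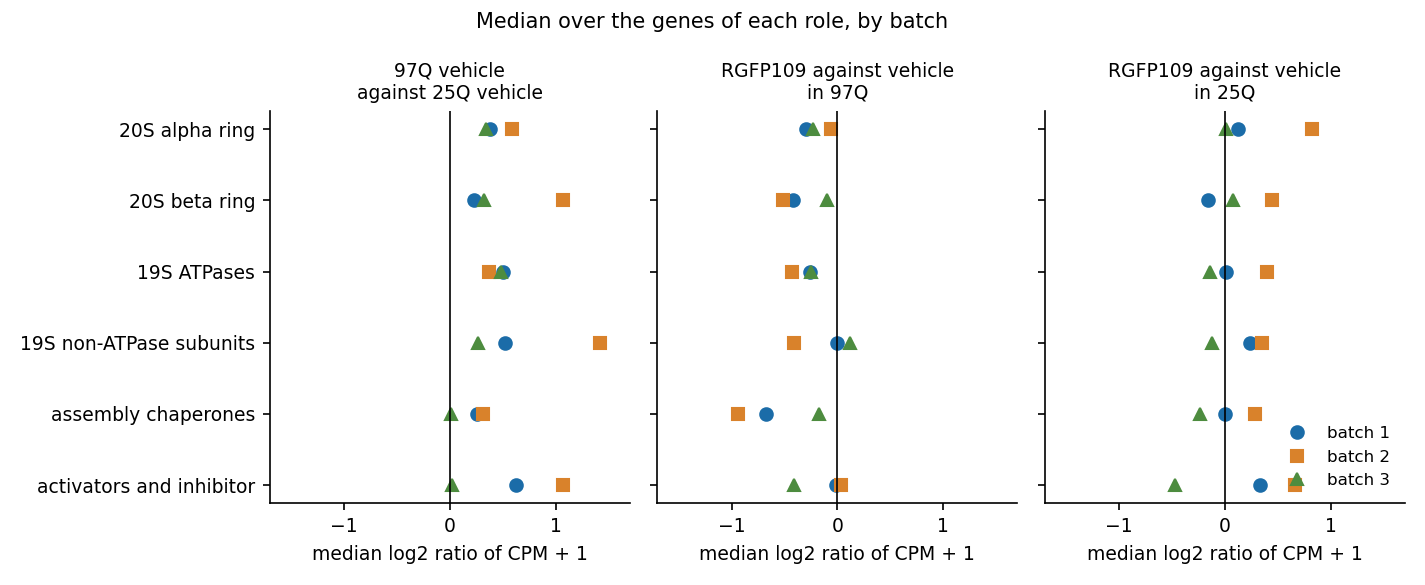
Median log2 ratio of CPM + 1 over the members of each role, 1 marker per batch, for 97Q over 25Q under vehicle and for RGFP109 over vehicle in 97Q and in 25Q. For 97Q over 25Q the beta ring medians are 0.23, 1.067 and 0.323 in batches 1, 2 and 3, and for RGFP109 in 97Q they are -0.423, -0.51 and -0.096; batch 2 lies farthest from 0 in most roles.

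With RGFP109 in both arms, 97Q and 25Q neurons lay closer together. The sums of all members were 8830.0, 11631 and 11509 CPM in 97Q RGFP109 neurons and 8307, 11892 and 9962 CPM in 25Q RGFP109 neurons, with overlap and with 97Q lower in batch 2. In the fit 30 of 43 were above 0, against 50.1% of all genes (median 0.10 over members and 0.003 over all genes). Medians by batch on library size were 0.057, -0.086 and 0.209 over members and 0.052, -0.23 and 0.097 over all genes. In all 3 batches 11 members were higher, against 13.3% of all genes. The median of the fit was 0.202 without batch 1. By edgeR's quasi-likelihood test 3 members were higher with an unadjusted p under 0.05 (1.9% of all genes), Psmc3, Psmd3 and Psmd5, and Psmg2 was lower. None passed Benjamini-Hochberg adjustment (0.0%, smallest adjusted p 0.999); 564 genes were under 0.05 unadjusted, DESeq2 called 277 genes and limma-voom 3, none a member. Psmc3, an ATPase, had 254, 354.5 and 343 CPM in 97Q RGFP109 sums and 159.9, 325 and 219.6 CPM in 25Q RGFP109 sums (log2 fold change 0.54, SE 0.23, unadjusted p 0.04295), higher in each batch. Psmg2 had 31.4, 13.5 and 62.99 CPM in 97Q RGFP109 sums and 55.5, 52.6 and 81.3 CPM in 25Q RGFP109 sums (log2 fold change -0.96, SE 0.39, unadjusted p 0.0356), lower in each batch. Psmd3 was highest at 1.06 and the base chaperone Psmd5 was at 0.66, and both had low levels in the 25Q RGFP109 sum of batch 3 (24.1 and 49.15 CPM). The ATPase Psmc4 was at 0.83, the scaffold Psmd1 at 0.555, the lid subunit Psmd12 at 0.44 and Psmd14 at 0.37, each higher in all 3 batches. The catalytic subunits Psmb5, Psmb6 and Psmb7 had -0.095, -0.08 and 0.096, and Pomp 0.12.

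Set against 25Q vehicle neurons, the drug-treated 97Q neurons had 35 of 43 members above 0, against 50.7% of all genes (median 0.283 over members and 0.015 over all genes; by batch 0.143, 0.342 and 0.236), and 15 were higher in all 3 batches, against 12.4% of all genes. The median of the fit was 0.118 without batch 2. Unadjusted, 7 members were higher with p under 0.05 (1.61% of all genes): Psmb7, Psmd3, Psmd1, Psmc4, Psmd2, Psma1 and Psmd4. Psmg2 was lower. None passed Benjamini-Hochberg adjustment with edgeR's quasi-likelihood test (0.0%, smallest adjusted p 0.9995); 503 genes were under 0.05 unadjusted, limma-voom called 0 genes, and DESeq2 called 188 genes including Psmg2 (adjusted p 0.0241). Psmb7 had 203, 409.8 and 283 CPM in 97Q RGFP109 sums (batches 1, 2 and 3), against 128.5, 159 and 206 CPM in 25Q vehicle sums (log2 fold change 0.89, SE 0.27, unadjusted p 0.00872). Psmg2 had 31.4, 13.5 and 62.99 CPM in 97Q RGFP109 sums and 82.0, 48.4 and 100.0 CPM in 25Q vehicle sums, lower in each batch (log2 fold change -1.20, SE 0.39, unadjusted p 0.0128). The scaffolds Psmd1 and Psmd2 were at 0.79 and 0.685, Psmc4 at 1.04, Psmd3 at 1.37, Psmd4 at 0.76 and Psma1 at 0.5, each higher in all 3 batches. Psmb5, Psmb6, Psmd14 and Pomp had -0.10, 0.19, 0.33 and 0.10. This contrast shares its 97Q RGFP109 and 25Q vehicle sums with the others, and its values are not separate evidence.

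Other genes of the pathway gave the following in 97Q against 25Q under vehicle, with none passing the test in either direction in any of the 4 lists. The inducible subunits, which replace their constitutive partners in immunoproteasomes or form the interferon-induced cap, were above 0 for 5 of 5 (median 1.13). Levels were low for Psmb8, Psmb9 and Psmb10 but not for the cap gene Psme1. Psme1 had 129.4, 93.35 and 192.6 CPM in 97Q vehicle sums and 138.5, 44.33 and 146.2 CPM in 25Q vehicle sums. Psmb8 had 20.7, 15.0 and 1.19 CPM in 97Q vehicle sums and 4.64, 0.0540 and 1.25 CPM in 25Q vehicle sums. Psmb10 had 24.2, 32.5 and 43.7 CPM in 97Q vehicle sums and 13.7, 2.54 and 46.7 CPM in 25Q vehicle sums. Psmb9 had 9.91, 16.85 and 7.90 CPM in 97Q vehicle sums and 0.0354, 0 and 3.25 CPM in 25Q vehicle sums. Regulators of proteasome genes and activity were above 0 for 8 of 12 (median 0.26), with the stress-induced Zfand2a at 1.32 (p 0.0614), Zfand5 at 1.11 and Fbxo7 at 0.58. Shuttle and associated factors, which deliver or trim ubiquitinated substrates, were above 0 for 11 of 14 (median 0.37), with the deubiquitinase Usp14 at 0.53 and the ubiquilins Ubqln1 and Ubqln4 at 0.49 and 0.83. Ubiquitin genes and ubiquitin-activating enzymes were above 0 for 5 of 6 (median 0.125): Uba1 was at 0.45, Rps27a at 0.78 and Uba6 at -0.39. Over all genes 52.4% were above 0. Medians by batch were 0.776, 3.245 and 0.395 for the inducible subunits and 0.056, 0.892 and -0.009 for the regulators. They were 0.148, 0.862 and 0.122 for the shuttle factors and -0.004, 0.229 and 0.483 for the ubiquitin genes. Higher in all 3 batches were 1 of 5, 1 of 12, 5 of 14 and 1 of 6, against 15.8% of all genes.

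With RGFP109 in 97Q neurons the inducible subunits were above 0 for 1 of 5 (median -1.12); Psmb10 had 2.46, 3.48 and 21.0 CPM in 97Q RGFP109 sums and 24.2, 32.5 and 43.7 CPM in 97Q vehicle sums (log2 fold change -2.38, unadjusted p 0.0373). The regulators were above 0 for 5 of 12, the shuttle factors for 6 of 14 and the ubiquitin genes for 2 of 6, with medians of -0.051, -0.065 and -0.14. In 25Q neurons the counts above 0 were 3 of 5, 4 of 12, 11 of 14 and 2 of 6. Over all genes 52% were below 0 with the drug in 97Q neurons, and 50.1% were above 0 in 25Q neurons. Counts such as 5 of 12, 6 of 14 and 3 of 5 are near these shares and are not a result. Lower in all 3 batches in 97Q neurons were 3 of 5, 1 of 12, 1 of 14 and 1 of 6, against 14.1% of all genes. Higher in all 3 batches in 25Q neurons were 1 of 5, 2 of 12, 2 of 14 and 0 of 6, against 12.3%. None of the genes in these lists passed the test in either direction.

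Neurons with an empty vector and astrocytes were collected in batch 3 only, as 1 sum each, so these values carry no test. Within that batch the 43 genes summed to 12999.8 CPM in 97Q vehicle neurons, 10097 CPM in 25Q vehicle neurons, 8050.3 CPM in astrocytes and 9501 CPM in empty vector neurons. Per cell the sum ran over 5863 to 11884 CPM with a median of 8058.5 in the 14 astrocytes and over 6504 to 12237 CPM with a median of 9609.5 in the 9 empty vector neurons. Against empty vector neurons, 35 of 43 members were higher in 97Q vehicle neurons (51.4% of all genes; median log2 ratio of CPM + 1 0.525) and 29 were higher in 25Q vehicle neurons (52.6% of all genes; median 0.202). In astrocytes 27 members were lower than in empty vector neurons (59.6% of all genes; median -0.231), and that share is close to the background.

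**Figure D5:**
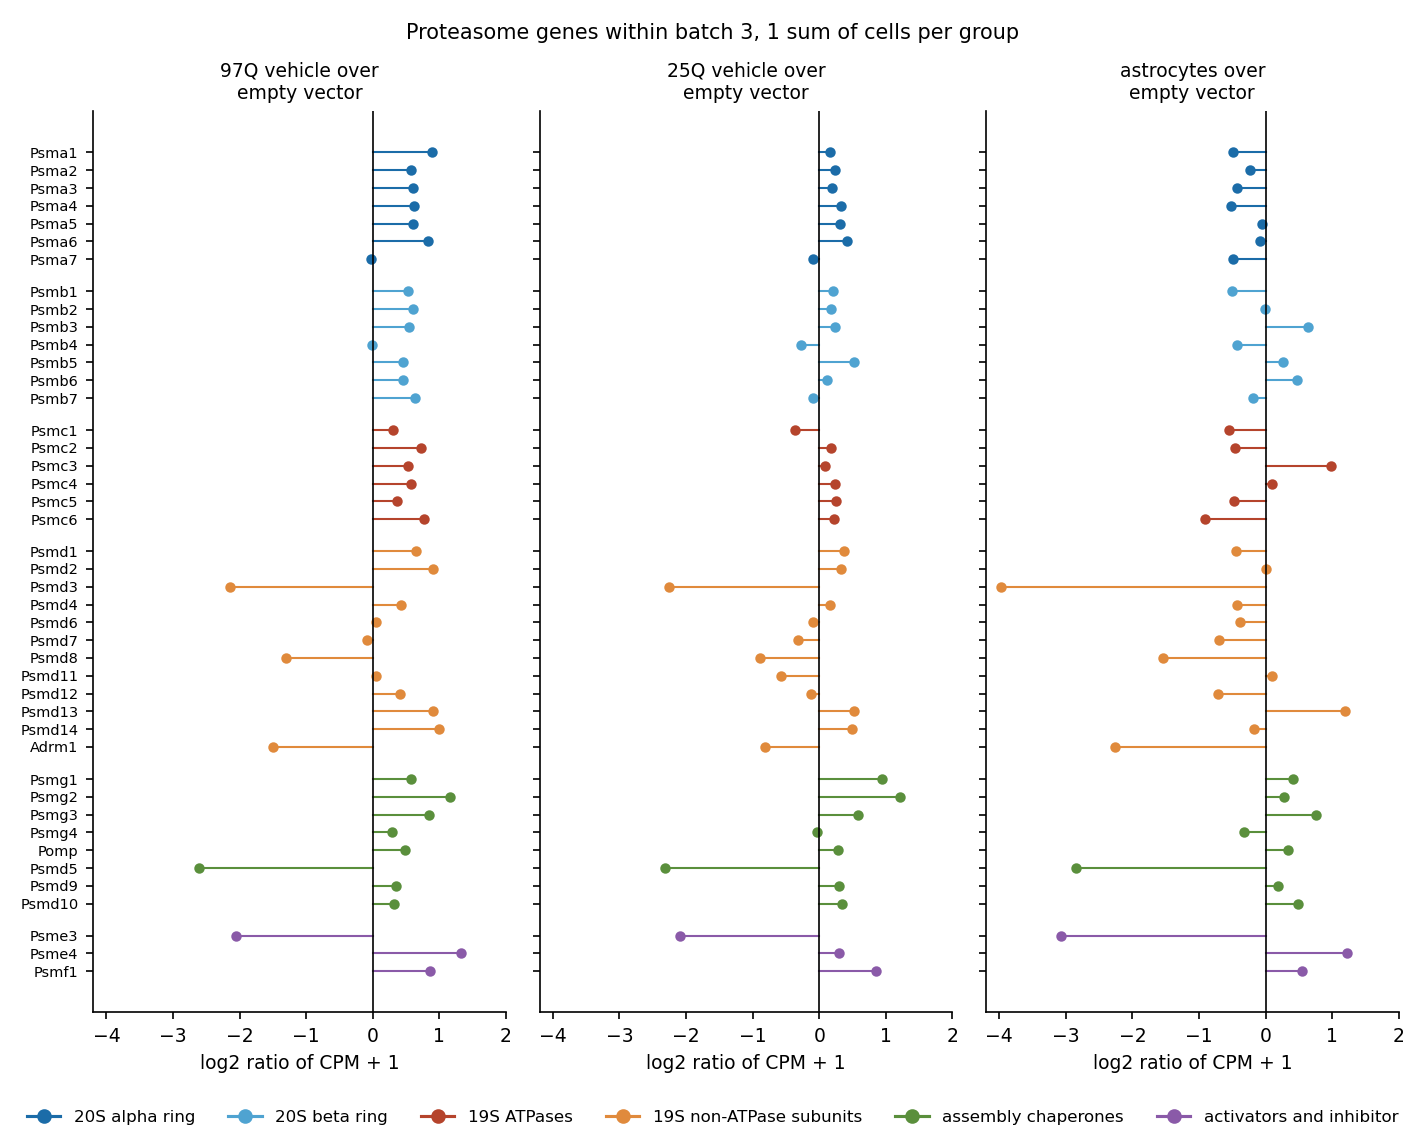
Log2 ratio of CPM + 1 over empty vector neurons in batch 3 for each member, in 97Q vehicle neurons, 25Q vehicle neurons and astrocytes; each point is a ratio of single sums without error. Most 97Q points lie above 0 (35 of 43), and Psmd3, Psmd5 and Psme3 lie more than 1 log2 unit below 0 in all 3.

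A few members went against the rest in this batch. Psmd3 had 29.4 CPM in 97Q vehicle neurons, 27.1 CPM in 25Q vehicle neurons and 7.59 CPM in astrocytes, against 133 CPM in empty vector neurons. Psmd5 had 48.85 CPM in 97Q vehicle neurons, 60.3 CPM in 25Q vehicle neurons and 41.3 CPM in astrocytes, against 303 CPM in empty vector neurons. Psme3 had 21.0 CPM in 97Q vehicle neurons, 20.65 CPM in 25Q vehicle neurons and 9.86 CPM in astrocytes, against 90.8 CPM in empty vector neurons. These 3 genes were the members more than 2-fold lower than in empty vector neurons in both tract groups; they were picked out after their values were seen, and 3 of 43 is near the 10.5% of all genes with that pattern. In single cells, Psmd3 was at 50 CPM or more in 9 of 9 empty vector neurons, but in 4 of 15 97Q vehicle and 3 of 15 25Q vehicle neurons of batch 3. In batch 1 the same gene had 180.3 CPM in 97Q vehicle neurons and 109.9 CPM in 25Q vehicle neurons, like the empty vector level of batch 3. Without these 3 genes, 36 of the other 40 members were above 0 in 97Q against 25Q under vehicle, with a median of 0.457.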

How the data were processed

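Whole-transcriptome counts were read for 127 single cells, and the raw counts per gene are as the authors deposited them, with no normalization. Per the submitters' processing notes, the tools were FastQC, Trimmomatic 0.36, STAR 2.5 and HTSeq 0.9.1 with GRCm38 (mm10); none of the sources used here gives the annotation release or the strand setting. Libraries were made with the SMARTer and Nextera XT kits, per the labels' protocols.

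Counts were summed per group and batch and fitted with edgeR 4.0.16 (R 4.3.3; quasi-likelihood test, two-sided, TMM, group and batch terms, 6 residual degrees of freedom). Genes needed to pass filterByExpr and have a count in at least 20% of cells, which left 15091. P-values were adjusted over all of them by Benjamini-Hochberg at 0.05. The fit was also run on simulated counts. No recovery rate from that run is given here, so it is not evidence of what these tests can detect at the spread of these data. By-batch ratios are log2 of CPM + 1 (pseudocount 1 CPM). Alternatives, 17 per contrast, covered scaling, filters, DESeq2 1.42.0, limma 3.58.1 (voom and cell means), thinned cells, covariates and each batch left out.

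The labels give the batch number, which the 4 transgene groups share, so batch was kept as a block. Deviations of the sums from their group means correlated at 0.156 to 0.23 within batch 1, 0.061 to 0.134 within batch 2 and 0.254 to 0.328 within batch 3, and at most at 0.094 between batches.

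The rule for the members uses names and roles alone, but the rule, the gene lists and the tests were set with earlier results of these data known. Named in each contrast are the 8 members with the smallest p, the highest and the lowest fold change, and always Psmb5, Psmb6, Psmb7, Psmd14 and Pomp; for levels, the highest and lowest per role; for other lists, the 3 smallest p. Gene coordinates are from GENCODE M21 (GRCm38). One promoter stretch is not reported here.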

Additional observations from a re-analysis of the deposited data

Results flagged for a closer look

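One value stood apart from its group of cells. In the 8 97Q vehicle neurons of batch 1, the summed level of the 6 ATPases was 2310.2 CPM in cell 6, against 1820.2 CPM in the next highest cell and 1501.5 CPM in the lowest. The gap to the nearest cell was 0.606 of the whole range of the group. Of 56 groups and values examined in this way (8 groups of 4 to 10 cells, with 7 values each), this was the only one, and chance alone gives about 1 in 20. The interaction between tract length and RGFP109 passed the threshold for 0 members (edgeR's quasi-likelihood test, smallest Benjamini-Hochberg adjusted p 0.998).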

How the results depend on the processing

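The median log2 fold change of the members in 97Q against 25Q under vehicle kept its sign under all 17 alternatives, and in no contrast did edgeR or limma call a member under any of them. DESeq2 called 1, Psmg2 in 97Q RGFP109 against 25Q vehicle (adjusted p 0.0241). For RGFP109 in 97Q, 17 members were above 0; the number was 10 on library size alone, 11 by limma-voom and 6 with the cells' mean log2 CPM, and 9 to 21 when a batch was left out. Its median of -0.09 was -0.197 on library size, -0.22 with thinned cells, -0.364 with cell means, -0.2 without 5 neurons rich in astrocyte markers, -0.221 with those markers as a covariate, and -0.232 to -0.011 when a batch was left out. For 97Q over 25Q under RGFP109, cell means gave 14 members above 0 and a median of -0.088. For 97Q RGFP109 over 25Q vehicle the median was 0.05 with cell means, 0.163 with the astrocyte covariate and 0.118 to 0.409 when a batch was left out. For the interaction, 8 were above 0; the number was 5 on library size, 4 with cell means and 8 to 15 when a batch was left out. The cause of these shifts was not tested.

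Batch is the replicate block of the fit reported. Without the replicate block the median was 0.425 for 97Q over 25Q under vehicle, -0.076 for RGFP109 in 97Q, 0.192 for RGFP109 in 25Q, 0.114 for 97Q over 25Q under RGFP109, 0.342 for 97Q RGFP109 over 25Q vehicle and -0.261 for the interaction. No call changed, and the block is kept because the labels give the batches.

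Of the 1258 values of named genes under alternatives, 55 had the opposite sign of the main value; the cause was not tested. For 97Q over 25Q under vehicle, Pomp was at -0.009 to 0.127 when a batch was left out (opposite in sign without batch 3), against 0.123 as reported. Psme4 was at 0.106 by limma-voom, against -0.482 as reported. For RGFP109 in 97Q, Pomp was at 0.013 with DESeq2 size factors in edgeR, 0.013 by DESeq2, 0.205 without the batch block, 0.065 without astrocyte-rich neurons and -0.434 to 0.273 when a batch was left out (opposite in sign without batch 1 and 3), against -0.022 as reported. Psmb7 was at -0.008 on library size alone, -0.069 by limma-voom, -0.124 with thinned cells, -0.325 with cell means of log2 CPM, -0.119 with the astrocyte markers as a covariate and -0.14 to 0.343 when a batch was left out (opposite in sign without batch 2), against 0.096 as reported. For RGFP109 in 25Q, Pomp was at 0.008 by limma-voom, 0.001 with filterByExpr alone, 0.013 with no filter, 0.082 without the batch block and -0.161 to 0.136 when a batch was left out (opposite in sign without batch 1), against -0.015 as reported. Psmb5 was at 0.008 with filterByExpr alone, 0.022 with no filter, 0.143 with thinned cells, 0.503 with cell means of log2 CPM, 0.219 with the number of genes detected as a covariate and -0.094 to 0.067 when a batch was left out (opposite in sign without batch 1 and 3), against -0.009 as reported. Psmb6 was at -0.002 with cell means of log2 CPM, against 0.271 as reported. Psmg1 was at 0.173 with the astrocyte markers as a covariate, against -0.569 as reported. For 97Q over 25Q under RGFP109, Pomp was at -0.124 with thinned cells, -0.15 with cell means of log2 CPM and -0.15 to 0.263 when a batch was left out (opposite in sign without batch 2), against 0.117 as reported. Psmb6 was at -0.172 to 0.036 when a batch was left out (opposite in sign without batch 1), against -0.08 as reported. Psmb7 was at -0.001 by limma-voom, -0.125 with thinned cells and -0.209 with cell means of log2 CPM, against 0.096 as reported. For 97Q RGFP109 over 25Q vehicle, Pomp was at -0.177 with thinned cells, -0.259 with cell means of log2 CPM, -0.109 with the astrocyte markers as a covariate, -0.061 with the number of genes detected as a covariate and -0.311 to 0.4 when a batch was left out (opposite in sign without batch 2), against 0.101 as reported. Psmb5 was at 0.365 with cell means of log2 CPM, 0.204 with the number of genes detected as a covariate and -0.265 to 0.036 when a batch was left out (opposite in sign without batch 1), against -0.103 as reported. Psmb6 was at -0.291 with cell means of log2 CPM, -0.039 with the astrocyte markers as a covariate and -0.102 to 0.478 when a batch was left out (opposite in sign without batch 2), against 0.191 as reported. For the interaction, Pomp was at 0.037 with DESeq2 size factors in edgeR, 0.037 by DESeq2, 0.003 with a count required in at least 50% of cells, 0.123 without the batch block, 0.083 without astrocyte-rich neurons and -0.272 to 0.166 when a batch was left out (opposite in sign without batch 1 and 3), against -0.006 as reported. Psme4 was at -0.291 by limma-voom and -0.147 to 1.901 when a batch was left out (opposite in sign without batch 1), against 0.582 as reported.

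The spread between sums was large (common biological coefficient of variation 0.928), and no animal or culture is named that would allow a closer replicate. Empty vector neurons and astrocytes have a single sum each, and no test was made with them. A batch of 3 or 4 cells enters the fit as 1 sum, like a batch of 15.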
